A study of Mus musculus and Homo sapiens with 19 samples.

Results

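The genes described here are 30 that serve protein folding in the endoplasmic reticulum (ER) and its stress program, the unfolded protein response. They were chosen by gene symbol, and all 30 are listed among the 24421 rows of the 4T1 knockdown table, the 57992 genes of the MDA-MB-231 table (under human symbols, with ERO1A for Ero1l) and the 55573 genes of the co-culture tables. The list holds 10 chaperones and their helpers (Hspa5, Hsp90b1, Hyou1, Dnajb9, Dnajb11, Dnajc3, Sdf2l1, Manf, Calr and Canx) and 6 oxidoreductases or their partners (P4hb, Pdia3, Pdia4, Pdia6, Creld2 and Ero1l). It also holds the 3 stress sensors with the transcription factor Xbp1 (Atf6, Ern1 and Eif2ak3, a group of 4), 7 genes of ER-associated degradation (Herpud1, Syvn1, Sel1l, Edem1, Derl1, Derl2 and Derl3) and 3 of protein entry into the ER (Sec61a1, Sec61b and Ssr1).

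The study measured polyadenylated RNA of breast cancer cells that differ in PHGDH, the first enzyme of serine synthesis, in 19 libraries. In 4T1, a mouse mammary tumour line, 3 libraries came from cells carrying an shRNA against PHGDH in the vector pLKO.1 (shPHGDH) and 3 from cells carrying a scrambled shRNA in the same vector (shSCR). In the human breast tumour line MDA-MB-231, 3 libraries are labelled as transduced with PHGDH cDNA in the vector pLHCX (labelled PHGDH OE) and 3 as control. The other 7 are single libraries of tumour and endothelial cells grown together or alone. They are 4T1 with Bend3, 4T1 alone, EMT6.5 with Bend3, EMT6.5 alone, Bend3 with 4T1, Bend3 with EMT6.5 and Bend3 alone, where EMT6.5 is another mouse mammary tumour line, Bend3 is a mouse endothelial line and FACS sorting separated the partners before RNA extraction. The labels name 1 shRNA per arm and no clones, and do not say whether replicates are separate cultures, so p-values measure only the spread between these libraries, which may be technical.

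As background, proteins bound for the cell surface or for secretion enter the ER through the Sec61 channel and fold there with the help of chaperones and of enzymes that form and shuffle disulfide bonds. Chains that fail to fold are moved back to the cytosol and degraded. When unfolded chains build up, the sensors Ire1 (Ern1), Perk (Eif2ak3) and Atf6 start the unfolded protein response, in which cleaved Atf6 and the spliced form of Xbp1 raise transcription of chaperone and degradation genes, while Perk slows translation and raises Atf4. Gene counts do not separate spliced from unspliced Xbp1, cleaved from full-length Atf6, or active from resting kinase.

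Promoters of many of these genes carry the ER stress response element (ERSE), which is CCAAT and CCACG with 9 bases between them, a site known to bind the factor NF-Y at CCAAT and Atf6 at CCACG. RefSeq promoter windows, from 250 bases before to 50 bases after each start on GRCm38.p6, were matched for 25 of the 30 genes, and not for Hyou1, Atf6, Manf, Sec61a1 and Derl1. ERSE was present on either strand in 9 of the 25 (36.0%), against 0.137% of all 27025 genes with a window. Among other ER genes chosen by role it was in 1 of 63 with a window. Since many of the 30 genes were already known to carry ERSE, the excess was given in advance and is not a finding of these data. The match of Calr, a chaperone gene and the only one of these 9 called lower in the knockdown, is not shown. The matches of the other 8 are shown with the CCAAT and CCACG parts in capitals, written 5′ to 3′ in the direction of the motif. Those of Hsp90b1 (second copy), Creld2 and Derl3 lie on the strand opposite to the gene's.
Hspa5 at chr2:34772025-34772043: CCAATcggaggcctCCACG
Hsp90b1 at chr10:86705638-86705656: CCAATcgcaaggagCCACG
Hsp90b1 at chr10:86705533-86705551: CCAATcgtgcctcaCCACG
Dnajc3 at chr14:118937827-118937845: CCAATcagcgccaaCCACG
Canx at chr11:50325800-50325818: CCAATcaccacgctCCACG
Pdia6 at chr12:17266491-17266509: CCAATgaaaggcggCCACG
Creld2 at chr15:88819520-88819538: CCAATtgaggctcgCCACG
Syvn1 at chr19:6046532-6046550: CCAATcggcggtagCCACG
Derl3 at chr10:75893242-75893260: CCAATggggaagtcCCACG
The shorter ERSE-II, ATTGG and CCACG with 1 base between them, was present on either strand in 2 of the 25 (8%), Dnajb11 and Herpud1. It was in 0.0444% of all genes and in 0 of the 63 other ER genes. The match of Dnajb11, which lies just after the RefSeq start, is shown.
Dnajb11 at chr16:22857852-22857862: ATTGGcCCACG
The XBP1 motif TGACGTGG was in none of the 25 windows, in 4 of the 63 other ER genes and in 0.714% of all genes. ERSE and ERSE-II share the letters CCACG, but no site listed matched both. A match describes these letters only and is not a measured site.

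Hspa5 and Dnajc3 are shown with their surroundings, since both carry an ERSE and were higher in the knockdown. They were picked by that rise, so they do not tie the motif to the change. Of 10 tested genes with ERSE or ERSE-II, 6 rose, 1 fell and 3 were not called. Hsp90b1, which holds a second copy of ERSE, was among those not called (log2 fold change -0.00064). The 160 bases before the RefSeq start of Hspa5 (chr2:34771930-34772089, plus strand) hold the ERSE, in capitals, from 65 to 47 bases before the start. The GENCODE start of Hspa5, chr2:34771970, lies within this stretch, so by that annotation the ERSE is inside the gene.
Hspa5: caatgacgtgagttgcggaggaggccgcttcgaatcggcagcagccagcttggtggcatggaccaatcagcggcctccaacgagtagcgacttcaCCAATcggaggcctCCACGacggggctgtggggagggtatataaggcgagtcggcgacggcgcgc
The 140 bases before the RefSeq start of Dnajc3 (chr14:118937792-118937931, plus strand) hold it from 105 to 87 bases before the start.
Dnajc3: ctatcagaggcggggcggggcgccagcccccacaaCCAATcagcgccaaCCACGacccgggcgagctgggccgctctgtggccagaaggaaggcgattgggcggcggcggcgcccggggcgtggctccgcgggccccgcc

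Depth and labels were checked first. Assigned counts per library were 12.7 to 20.5 M in shPHGDH, 14.4 to 19.0 M in shSCR, 19.6 to 23.6 M in the libraries labelled PHGDH OE, 19.5 to 23.8 M in MDA-MB-231 control and 4.27 to 7.67 M in the co-culture set. Phgdh averaged 20.9 ± 0.745 CPM, gene counts per 1 M counts of TMM-scaled library size, in shPHGDH and 168 ± 4.58 CPM in shSCR (SD, n = 3 each). PHGDH averaged 5.41 ± 0.772 CPM in the libraries labelled PHGDH OE and 16.5 ± 1.57 CPM in control (log2 fold change -1.61, SE 0.12, edgeR adjusted p = 5.76e-10). That goes against the label, so no direction below for MDA-MB-231 is a direction of PHGDH overexpression. Whether the labels of these groups were exchanged was not tested, and an exchange would turn every sign given for that line. Summed over 10 endothelial markers, CPM was 11776 and 12736 in Bend3 from co-culture and 9732 in Bend3 alone, against 100.03 to 207 in the tumour line libraries of that set. All 10 epithelial markers reached 1 CPM in every 4T1 knockdown library, with sums of 4196 to 4242 CPM in shPHGDH and 4556 to 4683 CPM in shSCR, and 7 of 10 did in every MDA-MB-231 library, with sums of 1935 to 2181.8 CPM in the libraries labelled PHGDH OE and 1290.5 to 1321 CPM in control. The endothelial markers summed to 94.1 to 96.3 CPM in shPHGDH and 63.3 to 69.9 CPM in shSCR, where 2 of 10 reached 1 CPM, and to 139 to 147 CPM in the libraries labelled PHGDH OE and 164 to 167 CPM in control. These sums did not overlap between groups, and their part in the results was not tested.

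The knockdown compared shPHGDH with shSCR 4T1 cells. Of 30 genes 29 could be tested, and 16 were higher, 6 lower and 7 not called in shPHGDH at an edgeR adjusted p under 0.05. Most called chaperones and disulfide enzymes rose, by small amounts, with the oxidase gene Ero1l the only member past 2-fold, while transcripts of the sensors Ern1 and Eif2ak3 fell and that of Atf6 rose. The share called was 75.9%, against 59.7% of the 11568 genes tested. The share called higher was 55.2%, against 30.1%, and the share called lower 20.7%, against 29.6%. Libraries of shPHGDH and shSCR did not overlap for 22 of the 29 members (75.9%), which are the 22 called, against 63.2% of all tested genes and 95.02% of the genes called. The median log2 fold change was 0.12 over the members and -0.010 over all tested genes, and the median size without sign was 0.16 over the members and 0.20 over all tested genes. In libraries of whole cultures, fewer cells of a kind and less RNA per cell cannot be told apart.

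Of the 10 chaperone genes 6 rose, 1 fell and 3 were not called. Hspa5, which encodes BiP, the Hsp70 of the ER lumen and a brake on all 3 sensors, lies at chr2:34771970-34777547, plus strand (GRCm38, GENCODE vM21, as for all positions of genes below). It was at 2375, 2386 and 2330.2 CPM in shPHGDH and 2039, 2041 and 2084 CPM in shSCR. The 3 shPHGDH libraries were all above the 3 shSCR libraries, and the rise was 1.15-fold (log2 fold change 0.20, SE 0.022, edgeR adjusted p = 8.78e-09). Dnajc3, a co-chaperone of BiP also known as p58IPK, was at 129, 135 and 126 CPM in shPHGDH and 85.9, 80.3 and 85.8 CPM in shSCR, without overlap. It rose 1.54-fold (log2 fold change 0.63, SE 0.036, edgeR adjusted p = 1.93e-14) and lies at chr14:118937976-118981697, plus strand. Smaller rises were found for Dnajb11 (log2 fold change 0.25), a J-domain partner of BiP, for Hyou1 (0.20), which exchanges its nucleotide, for the secreted stress protein Manf (0.16) and for the membrane lectin Canx (0.12). Calr, the soluble counterpart of Canx, fell by 0.16 on the log2 scale, with 1001 to 1047 CPM in shPHGDH and 1142 to 1148 CPM in shSCR. Hsp90b1, the Hsp90 of the ER (log2 fold change -0.00064), Dnajb9 (-0.15) and Sdf2l1 (0.10) were not called, and their groups overlapped.

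Among the 6 oxidoreductases and partners 4 rose, none fell and 2 were not called. Ero1l, the oxidase that hands disulfide bonds to protein disulfide isomerase, lies at chr14:45283087-45318771, minus strand. Its level was 115, 114 and 116 CPM in shPHGDH and 56.1, 53.9 and 57.7 CPM in shSCR. The shPHGDH libraries lay close together and far above every shSCR library, a rise of 2.06-fold (log2 fold change 1.04, SE 0.037, edgeR adjusted p = 3.10e-19). P4hb, the isomerase that Ero1l oxidises, averaged 737 ± 4.0 CPM in shPHGDH and 668 ± 9.0 CPM in shSCR (SD, n = 3 each; log2 fold change 0.14). Pdia3, which works with Calr and Canx on glycoproteins, rose by less (0.077). Creld2, a stress-induced partner of the isomerases, rose with a log2 fold change of 0.27. For Pdia4 and Pdia6 the log2 fold changes were 0.034 and -0.033, and neither was called.

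The 4 genes of sensing were all called, 1 higher and 3 lower. Atf6, the sensor that is cut in the Golgi to release a transcription factor, lies at chr1:170704674-170867771, minus strand. It was at 161, 164 and 171 CPM in shPHGDH and 126, 124 and 130.1 CPM in shSCR. All shPHGDH libraries were higher, and Atf6 rose 1.31-fold (log2 fold change 0.38, SE 0.034, edgeR adjusted p = 1.33e-10). Ern1, the sensor with an RNase domain that splices Xbp1, was at 44.6, 43.8 and 41.7 CPM in shPHGDH and 55.9, 52.7 and 55.4 CPM in shSCR, with every shPHGDH library lower (log2 fold change -0.34, SE 0.048, edgeR adjusted p = 8.25e-07). Eif2ak3, the kinase Perk, was at 15.9, 14.7 and 16.2 CPM in shPHGDH and 19.6, 21.6 and 19.4 CPM in shSCR. Its groups did not overlap either (log2 fold change -0.37, SE 0.075, edgeR adjusted p = 1.38e-04). Xbp1 was at 76.2, 76.0 and 74.5 CPM in shPHGDH and 84.3, 86.4 and 77.6 CPM in shSCR. The lowest shSCR library lay just above the highest shPHGDH library, and the fall was small (log2 fold change -0.13, SE 0.04, edgeR adjusted p = 0.00708). Ern1 lies at chr11:106394650-106487852, minus strand, Eif2ak3 at chr6:70844515-70905245, plus strand and Xbp1 at chr11:5520659-5525893, plus strand.

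Of 6 degradation genes tested 3 rose, 1 fell and 2 were not called. Herpud1, an ER membrane protein strongly induced by ER stress that helps assemble the ligase complex, lies at chr8:94386438-94395377, plus strand. It was at 34.8, 33.1 and 31.6 CPM in shPHGDH and 24.4, 25.2 and 25.1 CPM in shSCR. The groups did not overlap, and it rose 1.33-fold (log2 fold change 0.41, SE 0.062, edgeR adjusted p = 2.11e-06). Derl1, a membrane protein of the export channel, was at 167, 176 and 170.1 CPM in shPHGDH and 134, 135 and 126 CPM in shSCR, again without overlap (log2 fold change 0.37, SE 0.035, edgeR adjusted p = 4.23e-10). Its relative Derl2 rose less (0.12), and Sel1l, the partner of the ligase Syvn1, fell by 0.14. Syvn1 itself (0.088) and the mannosidase-like Edem1 (-0.019) were not called. Derl3 was too low to test, with 2 to 8 counts per library.

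All 3 translocation genes were called. Ssr1, a subunit of the translocon-associated complex, was at 369.5, 378 and 359 CPM in shPHGDH and 262, 258 and 272 CPM in shSCR. It rose 1.40-fold without overlap (log2 fold change 0.48, SE 0.028, edgeR adjusted p = 2.86e-14). Sec61a1, the pore of the channel, also rose (log2 fold change 0.29). Sec61b, a small subunit of the same channel, was at 37.2, 34.6 and 36.8 CPM in shPHGDH and 46.7, 49.6 and 46.0 CPM in shSCR. It fell, with every shPHGDH library below every shSCR library (log2 fold change -0.39, SE 0.054, edgeR adjusted p = 5.71e-07), so these subunits of the channel moved in opposite directions.

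**Figure D1:**
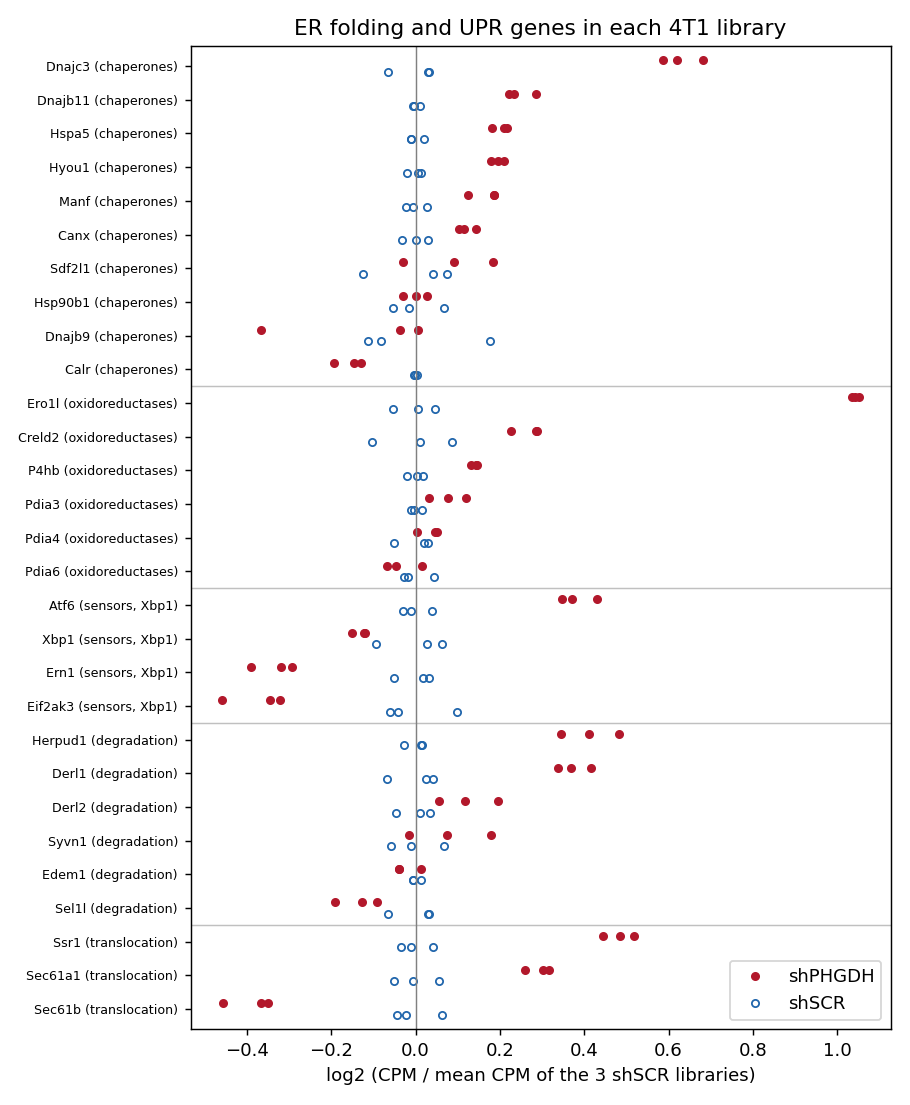
Level of the 29 tested genes in each 4T1 library, as log2 of CPM over the mean CPM of the 3 shSCR libraries (x axis), grouped by role from top to bottom. Filled points are shPHGDH libraries and open points shSCR libraries; Ero1l stands furthest right, Dnajc3 next, and the Ern1, Eif2ak3 and Sec61b points of shPHGDH all lie left of the shSCR points.

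Several mouse chromosomes had shifted medians between shPHGDH and shSCR, and members lie on them. The median log2 fold change of tested genes was 0.51 on chromosome 14, which holds Ero1l and Dnajc3, 0.28 on chromosome 15 (Derl1 and Creld2) and 0.25 on chromosome 13 (Ssr1). It was -0.25 on chromosome 8 (Calr and Herpud1) and -0.22 on chromosome 4 (Sec61b). After subtraction of its chromosome's median, Ero1l kept 0.53 and Dnajc3 0.12, Derl1 kept 0.094, Ssr1 0.23 and Sec61b -0.16. Herpud1 came to 0.66, since it rose on a chromosome whose median was lower. Calr came to 0.096 and Creld2 to -0.012, which turned the sign of both, and the other 20 called members kept theirs. Some of these were left with little, as Manf (0.024) and Hyou1 (0.055) on chromosome 9, which had a median of 0.14. Dnajb11 kept 0.13 on chromosome 16 (median 0.12). Canx (0.16) and P4hb (0.18), on chromosome 11, came out higher than before. Hspa5 (0.23 after subtraction), Atf6 (0.41), Ern1 (-0.30) and Eif2ak3 (-0.35) lie on chromosomes with medians between -0.040 and -0.014. The part of the chromosome shifts in these values was not tested.

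**Figure D2:**
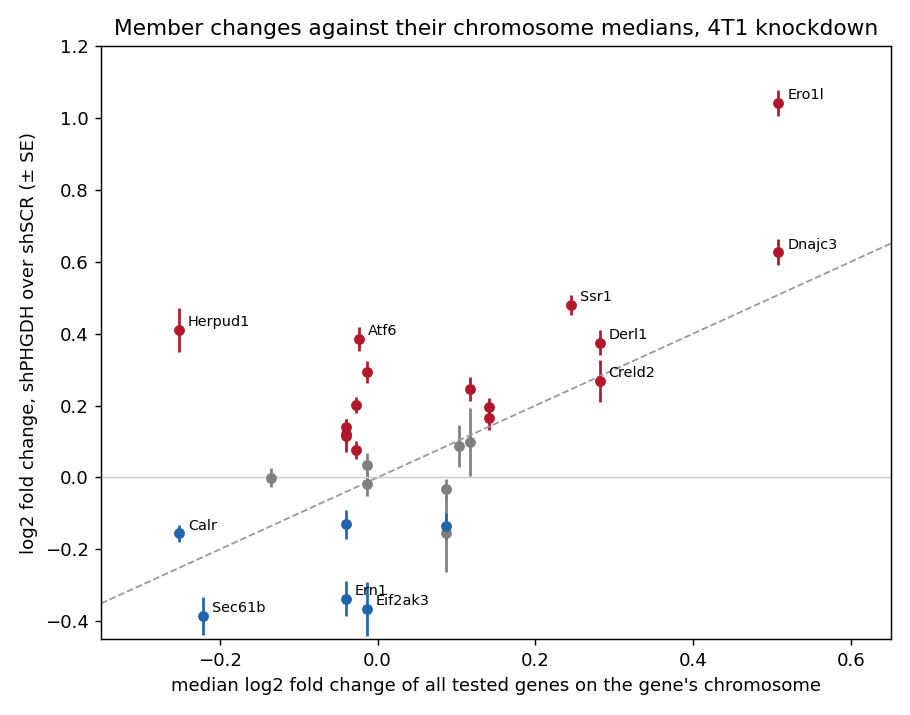
Log2 fold change, shPHGDH over shSCR, of each tested gene of the list (y axis, bars are SE) against the median log2 fold change of all tested genes on its chromosome (x axis), with the dashed line marking equality. Red points were called higher, blue lower and grey not called; Dnajc3, Derl1 and Creld2 lie near the line, Ero1l lies 0.53 above it and Herpud1 0.66 above it.

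Sequencing lane was uneven, since shSCR replicates 1 and 2 ran on lane 5 and the other 4 libraries on lane 6. Member counts under the settings of this paragraph come without the shares of all tested genes, so they show only how steady the calls were. With lane in the model 15 members were higher and 5 lower, and the calls of Xbp1 (log2 fold change -0.040, adjusted p = 0.509), Sel1l (-0.073, 0.178) and Derl2 (0.083, 0.249) were lost, while Dnajb9 was called lower (-0.32, 0.0444). On lane 6 alone 15 were higher and 5 lower, but there the spread comes from the shPHGDH libraries, and the 1 shSCR library is assumed to vary as they do. With DESeq2 the calls of Xbp1 (adjusted p = 0.0641) and Derl2 (0.102) were lost, and with library totals in place of TMM those of Pdia3 (edgeR adjusted p = 0.198) and Derl2 (0.144), while Pdia6 was called lower (0.0376). Derl2 also lost its call without shPHGDH replicate 1 (edgeR adjusted p = 0.055) or 2 (0.125) and without shSCR replicate 1 (0.0549) or 2 (0.113), Pdia3 without shPHGDH replicate 2 (0.0504), and Syvn1 gained one without shPHGDH replicate 1 (0.0452). Exons of genes on the other strand overlap 10.3% of the exon bases of Hsp90b1, 8.85% of Manf, 8.16% of Sec61a1 and 8.05% of Eif2ak3, and the strand setting of the counting is not given in the sources used here.

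Of 82 further ER genes chosen by role, 79 were tested in the knockdown, and 37 were higher, 22 lower and 20 not called in shPHGDH. The list was made with earlier results of these data known. The share called was 74.7%, against the same 59.7%, with 46.8% higher, against 30.1%, and 27.8% lower, against 29.6%. Among sensor targets and factors 6 of 11 were higher and 3 lower. Trib3, a pseudokinase induced by Atf4, averaged 16.9 ± 0.871 CPM in shPHGDH and 8.71 ± 1.05 CPM in shSCR (SD, n = 3 each; log2 fold change 0.97). Chac1, which breaks down glutathione and is also an Atf4 target, rose (0.91), as did Atf4 itself (0.56; chromosome 15) and Ppp1r15a (0.28, adjusted p = 0.00987), the phosphatase subunit that reverses the Perk block on translation. Ddit3, the stress factor CHOP, had a log2 fold change of -0.29 and was not called (edgeR adjusted p = 0.0613). The 3 lower genes of this group, named after their values were seen, were Atf3 (-0.20, edgeR adjusted p = 0.0248), Atf6b (-0.11) and Creb3 (-0.38). The group was thus mixed in direction. In protein entry and glycosylation 16 of 29 were higher and 8 lower, led by the channel paralogue Sec61a2 (0.71) and the signal peptidase subunit Spcs1 (0.62; chromosome 14). In folding 10 of 19 were higher and 4 lower, with the isomerase Txndc5 (0.47; chromosome 13) first by size among those at a mean of at least 10 CPM. The oxidase paralogue Ero1lb, at a mean of 7.10 CPM and named after its values were seen, fell (-0.57). In degradation 5 of 20 were higher and 7 lower. The export ATPase Vcp (-0.50; chromosome 4) and Erlin2 (-0.47; chromosome 8) were among those that fell.

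The MDA-MB-231 experiment compared the libraries labelled PHGDH OE with control. All 30 genes were tested, and 11 were higher, 8 lower and 11 not called. At a mean of at least 10 CPM the largest rises were those of the disulfide isomerases PDIA4 and P4HB, the transcription factor XBP1 and the isomerase partner CRELD2, while DNAJB9, SSR1, DERL1 and ATF6 fell. With library totals in place of TMM scaling 9 were higher and 11 lower, so which direction was more frequent changed with the scaling. A change of scaling shifts all genes together, and the shares of all tested genes under library totals are not given. The change of balance is therefore not a result about the members. The share called was 63.3%, against 44.5% of 17663 genes tested. It was 36.7% higher, against 21.6%, and 26.7% lower, against 22.9%. The median size of the log2 fold change without sign was 0.24 over the members and 0.25 over all tested genes. The median log2 fold change was 0.039 over the members and -0.012 over all tested genes, and the groups did not overlap for 22 of 30 members (73.3%), against 52.5% of all tested genes. These include the 19 called members, and of all genes called 94.9% did not overlap.

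Of 10 chaperone genes 5 were higher, 2 lower and 3 not called. HSPA5 was at 541, 528 and 539 CPM in the libraries labelled PHGDH OE and 449.8, 455 and 441 CPM in control. The libraries labelled PHGDH OE were all higher (log2 fold change 0.26, SE 0.053, edgeR adjusted p = 4.83e-04). CANX (0.35), SDF2L1 (0.51), MANF (0.23) and HYOU1 (0.21) rose as well, SDF2L1 at 11.2 to 12.1 CPM in the libraries labelled PHGDH OE and 6.83 to 8.80 CPM in control. DNAJB9, a BiP co-chaperone that is a standard XBP1 target, was at 12.4, 17.1 and 10.8 CPM in the libraries labelled PHGDH OE and 17.4, 17.7 and 17.7 CPM in control. It fell, with replicate 2 labelled PHGDH OE close below the controls (log2 fold change -0.38, SE 0.12, edgeR adjusted p = 0.0161), and the call was lost without replicate 1 (adjusted p = 0.0641) or replicate 3 (0.127) labelled PHGDH OE. HSP90B1 fell by 0.21 on the log2 scale. CALR (0.13), DNAJB11 (-0.16) and DNAJC3 (-0.14) were not called. Without replicate 2 labelled PHGDH OE all 3 were (edgeR adjusted p = 0.0408, 0.0135 and 0.0467). CALR was also called with DESeq2 (0.0212), and DNAJB11 with library totals (0.0190) and without control replicate 1 (0.0242), while MANF was lost without control replicate 2 (0.0503).

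All 6 oxidoreductases and partners were called, 4 higher and 2 lower. PDIA4 was at 253, 242 and 249.8 CPM in the libraries labelled PHGDH OE and 171, 178 and 172 CPM in control. Every library labelled PHGDH OE was higher, by 1.43-fold on average (log2 fold change 0.52, SE 0.055, edgeR adjusted p = 1.21e-07). P4HB was at 811, 769.9 and 829 CPM in the libraries labelled PHGDH OE and 603, 619 and 633 CPM in control, also without overlap (log2 fold change 0.38, SE 0.055, edgeR adjusted p = 8.13e-06). CRELD2 was at 13.2, 13.8 and 15.4 CPM in the libraries labelled PHGDH OE and 11.6, 9.94 and 11.6 CPM in control and rose (log2 fold change 0.36, SE 0.11, edgeR adjusted p = 0.00865). The lowest library labelled PHGDH OE and the highest control lay close together, and the call was lost without control replicate 2 (adjusted p = 0.0572) or without replicate 3 labelled PHGDH OE (0.05004). PDIA3 rose with a log2 fold change of 0.14, a call that was lost on leaving out any library but replicate 3 labelled PHGDH OE (edgeR adjusted p of 0.0545 to 0.132), with library totals (0.219) and without the filter on low counts (0.0742). ERO1A and PDIA6 each fell by 0.24 on the log2 scale.

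In sensing, 1 gene was higher, 2 were lower and 1 was not called. XBP1 was at 67.1, 65.5 and 74.5 CPM in the libraries labelled PHGDH OE and 45.5, 50.4 and 50.5 CPM in control. The libraries labelled PHGDH OE were all higher, by 1.42-fold (log2 fold change 0.50, SE 0.072, edgeR adjusted p = 6.66e-06). ATF6 was at 75.9, 80.9 and 77.7 CPM in the libraries labelled PHGDH OE and 109, 93.8 and 97.3 CPM in control, with all libraries labelled PHGDH OE lower (log2 fold change -0.36, SE 0.067, edgeR adjusted p = 1.58e-04). EIF2AK3 was at 11.7, 12.5 and 10.2 CPM in the libraries labelled PHGDH OE and 14.5, 14.1 and 13.9 CPM in control. It was called lower (log2 fold change -0.30, SE 0.10, edgeR adjusted p = 0.0216), but not with DESeq2 (adjusted p = 0.0777), nor with edgeR without control replicate 1 (0.0574) or without replicate 1 (0.051) or 3 (0.103) labelled PHGDH OE. ERN1 was at 12.4, 13.2 and 13.04 CPM in the libraries labelled PHGDH OE and 16.1, 15.2 and 13.1 CPM in control, the groups overlapped and it was not called (log2 fold change -0.20, SE 0.10, edgeR adjusted p = 0.111), though it was without control replicate 3 (0.0437) and with library totals (0.0420).

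Of 7 degradation genes only DERL1 was called, and with library totals DERL2 also was (lower, edgeR adjusted p = 0.0471). DERL1 was at 72.4, 66.5 and 66.2 CPM in the libraries labelled PHGDH OE and 87.4, 88.4 and 87.8 CPM in control, lower in every library labelled PHGDH OE (log2 fold change -0.36, SE 0.064, edgeR adjusted p = 7.72e-05). HERPUD1 averaged 35.4 ± 0.3335 CPM in the libraries labelled PHGDH OE and 34.97 ± 1.30 CPM in control (SD, n = 3 each), and was not called (log2 fold change 0.017). In translocation, SSR1 was at 223, 239.8 and 212 CPM in the libraries labelled PHGDH OE and 296, 283 and 295 CPM in control, without overlap (log2 fold change -0.37, SE 0.059, edgeR adjusted p = 2.06e-05). SEC61A1 rose (0.18), a call that was lost without control replicate 3 (adjusted p = 0.0732) or without replicate 1 (0.0656) or 3 (0.0564) labelled PHGDH OE and with library totals (0.0838), and SEC61B (0.15) was not called, though it was without replicate 3 labelled PHGDH OE (0.0326).

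All 82 further ER genes were tested in MDA-MB-231, and 27 were higher, 24 lower and 31 not called. The share called was 62.2%, against the same 44.5%, with 32.9% higher, against 21.6%, and 29.3% lower, against 22.9%. With library totals 22 were higher and 32 lower, again without the shares of all tested genes under that scaling. TRIB3 averaged 54.9 ± 1.76 CPM in the libraries labelled PHGDH OE and 28.4 ± 1.99 CPM in control (SD, n = 3 each; log2 fold change 0.95). DDIT3 (0.63), VIMP (0.64), a membrane partner of VCP, and the membrane-bound factor CREB3L2 (0.56) rose. The signal peptidase subunit SEC11C (-0.78), the lectin ERLEC1 (-0.70), the thioredoxin-like TMX3 (-0.63) and FAM8A1 (-0.56), a partner of SYVN1, fell. CHAC1, at a mean of 4.46 CPM and named after its values were seen, fell (-0.78), as did PPP1R15A (-0.39), and ATF4 (0.046) was not called.

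Set side by side, 29 genes were tested in both experiments, which share no library, and 14 were called in both (48.3%, against 32.8% of 9501 genes matched by symbol). These 14 were 63.6% of the members called in the knockdown and 73.7% of those called in MDA-MB-231. Higher in both were 8 genes, Hspa5, Hyou1, Manf, Canx, P4hb, Pdia3, Creld2 and Sec61a1, and lower in both was Eif2ak3. Ero1l, Atf6, Derl1 and Ssr1 were higher in shPHGDH and lower in the libraries labelled PHGDH OE, and Xbp1 was lower in shPHGDH and higher in those. The direction was thus the same for 64.3% of the 14, against 49.5% of the 3112 genes called in both experiments. With the MDA-MB-231 labels exchanged it would be the same for 35.7% of the 14, against 50.5%. Among genes with the same direction, Manf, Pdia3, Creld2, Sec61a1 and Eif2ak3 lost their MDA-MB-231 call under other settings or with a library left out. Pdia3 also lost its call in the knockdown. After subtraction of the chromosome median Creld2 came to -0.012 and Manf to 0.024 there. Among genes with opposite directions, Xbp1 lost its knockdown call with DESeq2 and with lane in the model. PHGDH was lower in shPHGDH and in the libraries labelled PHGDH OE than in their controls. Log2 fold changes stood at 0.20 in 4T1 and 0.26 in MDA-MB-231 for Hspa5, at 1.04 and -0.24 for Ero1l, and at 0.38 and -0.36 for Atf6.

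**Figure D3:**
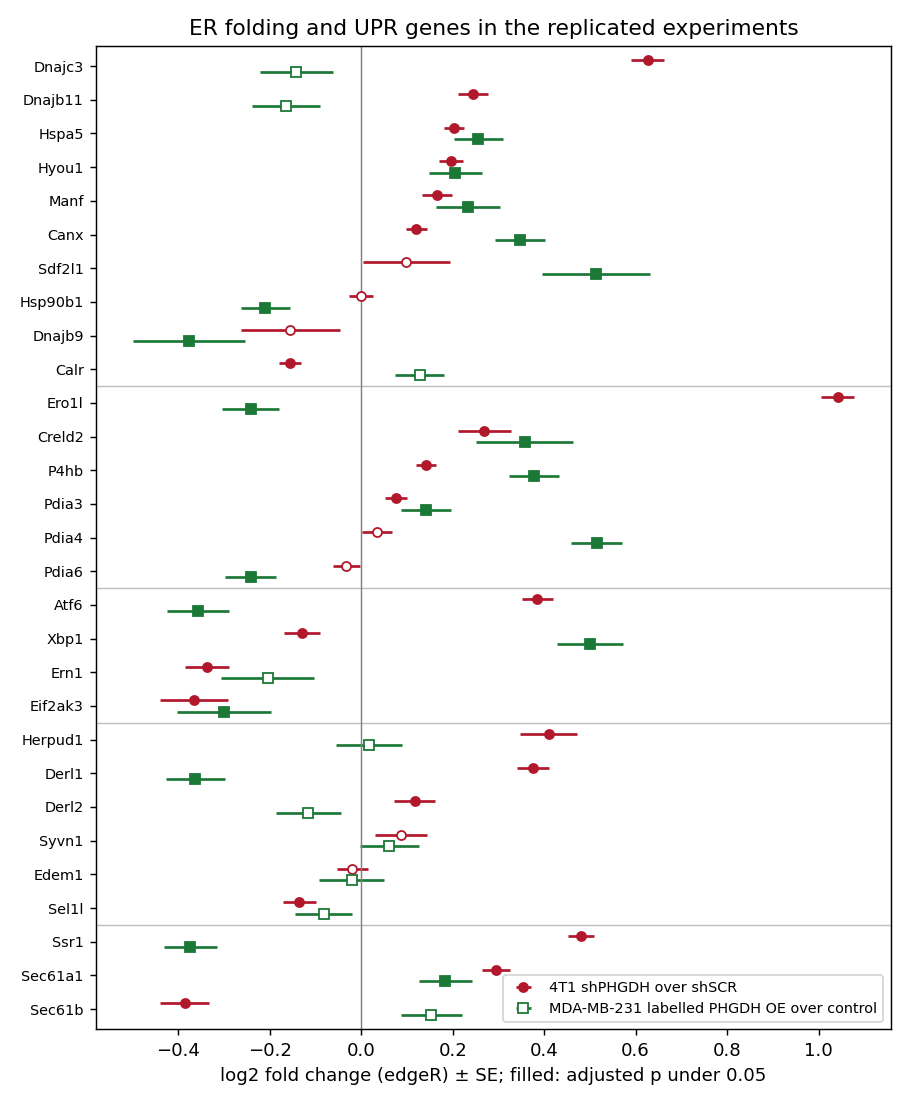
Log2 fold changes from edgeR (x axis, bars are SE) of the 29 genes tested in both experiments, shPHGDH over shSCR in 4T1 (circles) and libraries labelled PHGDH OE over control in MDA-MB-231 (squares), filled where the adjusted p was under 0.05. Hspa5, Hyou1, Manf, Canx, P4hb, Pdia3, Creld2 and Sec61a1 are filled right of 0 in both, and Ero1l, Atf6, Derl1 and Ssr1 are filled on opposite sides.

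The co-culture set asked how each line changes when tumour and endothelial cells are grown together. It has 1 library per condition and no test; a gene is called higher or lower here when its CPM ratio of co-culture to the same line alone passed 1.5-fold, and ratios come with 95% exact intervals that cover counting error only. Derl3 had 2 counts in 4T1 with Bend3 and 0 in the other 6 libraries, which leaves 29 genes. In 4T1 some genes were lower, among them the BiP gene, the chaperone gene Hyou1, the sensors Ern1 and Atf6, and Ero1l. Others were higher, among them the sensor Eif2ak3 and several chaperones and isomerases. Both shares lay near those of all genes. In Bend3 most of the genes had ratios a little under 1 with either tumour partner.

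In 4T1 with Bend3, 6 genes were higher and 9 lower than in 4T1 alone, 20.7% and 31%, against 23.7% and 24.4% of 10123 genes. This pair of libraries differed widely over all genes, and the shares of the list lay near those of all genes. Hspa5 was at 1610.3 CPM in co-culture and 4597 CPM alone, a ratio of 0.350 (0.341 to 0.360). Ern1 was at 22.0 CPM in co-culture and 74.1 CPM alone (0.297 (0.234 to 0.372)), and Ero1l at 23.3 CPM in co-culture and 68.0 CPM alone (0.343 (0.272 to 0.430)). These are the lowest ratios of the list in this line. Atf6 (0.441), Herpud1 (0.463), Derl1 (0.540), Sel1l (0.585), Hyou1 (0.631) and Sec61a1 (0.647) were lower too. Pdia4 was at 85.0 CPM in co-culture and 26.1 CPM alone, a ratio of 3.26 (2.64 to 4.04). Calr was at 503 CPM in co-culture and 225 CPM alone (2.24 (2.08 to 2.41)). Dnajb9 (2.54 (1.75 to 3.75)), Eif2ak3 (1.95 (1.24 to 3.11)), Sdf2l1 (1.79 (1.25 to 2.57)) and Pdia6 (1.74 (1.61 to 1.87)) were higher, Eif2ak3 on 59 counts in co-culture and 31 alone. By role, 3 of 6 degradation genes were lower and none higher, and 2 of 6 oxidoreductases were higher and 1 lower. Xbp1 had a ratio of 0.900 (0.793 to 1.02). The ratio was under 1 for 13 of 29 members (44.8%), against 51.3% of all genes.

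In EMT6.5 with Bend3, 1 gene was higher and 3 were lower than in EMT6.5 alone, 3.45% and 10.3%, against 13.6% and 16.8% of 10197 genes. Dnajb9 was at 24.6 CPM in co-culture and 13.7 CPM alone, a ratio of 1.80 (1.38 to 2.35). Sdf2l1 was at 57.5 CPM in co-culture and 96.1 CPM alone (0.598 (0.520 to 0.686)), and Ero1l at 23.4 CPM in co-culture and 37.3 CPM alone (0.626 (0.501 to 0.778)). Edem1 (0.630 (0.553 to 0.716)) was the remaining gene past the limit. Hspa5 was at 1074 CPM in co-culture and 1176 CPM alone (0.913 (0.883 to 0.944)), and the sensors were within the limit, with ratios of 0.846 for Atf6, 1.37 for Ern1, 0.748 for Eif2ak3 and 0.922 for Xbp1. Ratios under 1 were found for 17 of 29 members (58.6%), against 52.1% of all genes. Dnajb9 was thus higher and Ero1l lower with Bend3 in both tumour lines.

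Bend3 with 4T1 had 3 lower genes and none higher, 10.3% lower against 7.29%, and 0% higher against 10.1%, of 10065 genes. The ratio was under 1 for 24 of 29 members (82.8%), against 46.2% of all genes, with a median of 0.852 over the members and 1.03 over all genes. Bend3 with EMT6.5 had 1 higher (3.45% against 10.1%) and 2 lower (6.9% against 7.01% of 10069 genes), and 21 of 29 were under 1 (72.4% against 45%), with medians of 0.901 and 1.03. The Bend3 ratios share the single monoculture library, so a low or high value there moves both. Hyou1 was at 16.1 CPM with 4T1, 17.3 CPM with EMT6.5 and 30.8 CPM alone. Sdf2l1 was at 22.0 CPM with 4T1, 19.9 CPM with EMT6.5 and 33.0 CPM alone. Both were past 1.5-fold with either partner. Pdia6 was past it with 4T1 (0.606 (0.567 to 0.648)) and at 0.700 (0.656 to 0.746) with EMT6.5. Ern1 was at 22.5 CPM in co-culture and 10.5 CPM alone with EMT6.5 as partner (2.15 (1.52 to 3.08)), on 121 and 47 counts. Hspa5 stood at 921 CPM with 4T1, 896 CPM with EMT6.5 and 971 CPM alone, all within the limit.

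**Figure D4:**
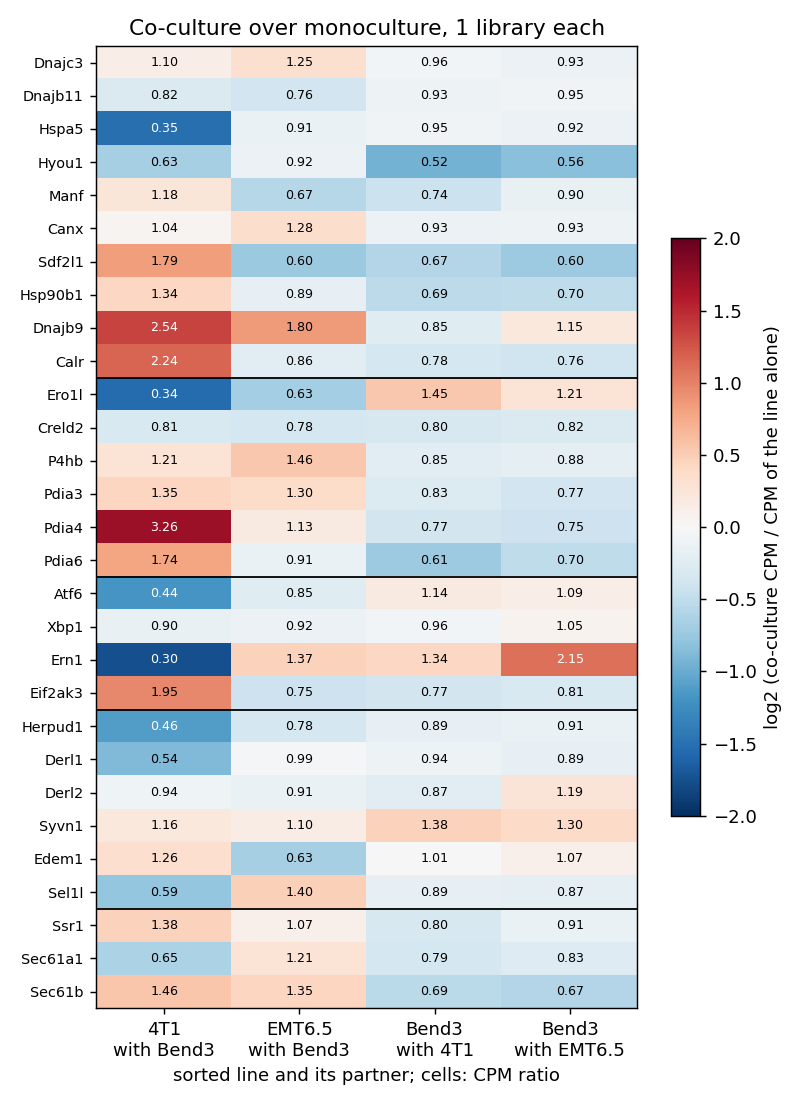
CPM ratio of each gene, co-culture over the same line alone, for 4 pairs of single libraries (columns), with colour on a log2 scale and the ratio printed in each cell. The 4T1 column holds both the darkest blue cells (Ern1, Ero1l and Hspa5) and the darkest red (Pdia4), and the Bend3 columns are mostly pale blue.

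Markers of the partner line were low but moved with co-culture. The 10 epithelial markers summed to 52.1 CPM in Bend3 with 4T1 and 7.83 CPM in Bend3 with EMT6.5, against 2.01 CPM in Bend3 alone and 618 to 1989 CPM in the tumour lines, with 1 and 7 markers at 0 in the sorted Bend3 libraries and 4 at 0 in Bend3 alone. The 10 endothelial markers summed to 207 CPM in 4T1 with Bend3 and 100.03 CPM in 4T1 alone, and to 119 CPM in EMT6.5 with Bend3 and 115 CPM in EMT6.5 alone, with none at 0. The epithelial list also moved within the tumour lines, at 1989 CPM in 4T1 with Bend3 and 1789.8 CPM alone, and at 618 CPM in EMT6.5 with Bend3 and 831 CPM alone. The part of partner RNA in the ratios was not tested.

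Levels were also set side by side between lines, taking the co-cultured and lone libraries of a line together. Bend3 libraries were all above the tumour line libraries for 6 of 29 genes (20.7%, against 23.7% of 10742 genes), which were Dnajb9, Dnajb11, Canx, Pdia3, Sel1l and Derl2. They were all below for 3 (10.3%, against 20.6%), Hspa5, Xbp1 and Ssr1. EMT6.5 libraries were both above the 4T1 libraries for 11 genes (37.9%, against 24.9%), which were Hyou1, Dnajb11, Dnajc3, Sdf2l1, Calr, Pdia4, Pdia6, Creld2, Xbp1, Edem1 and Sec61b, and both below for Hspa5 and Derl1 (6.9%, against 25%). Pdia6 was at 936 and 1024 CPM in EMT6.5 with Bend3 and alone, and at 452 and 261 CPM in 4T1 with Bend3 and alone. Sdf2l1 was at 57.5 and 96.1 CPM in EMT6.5 with Bend3 and alone, and at 19.97 and 11.2 CPM in 4T1 with Bend3 and alone. Hspa5 ran the other way, at 1074 and 1176 CPM in EMT6.5 and 1610.3 and 4597 CPM in 4T1, in the same order of culture.

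**Figure D5:**
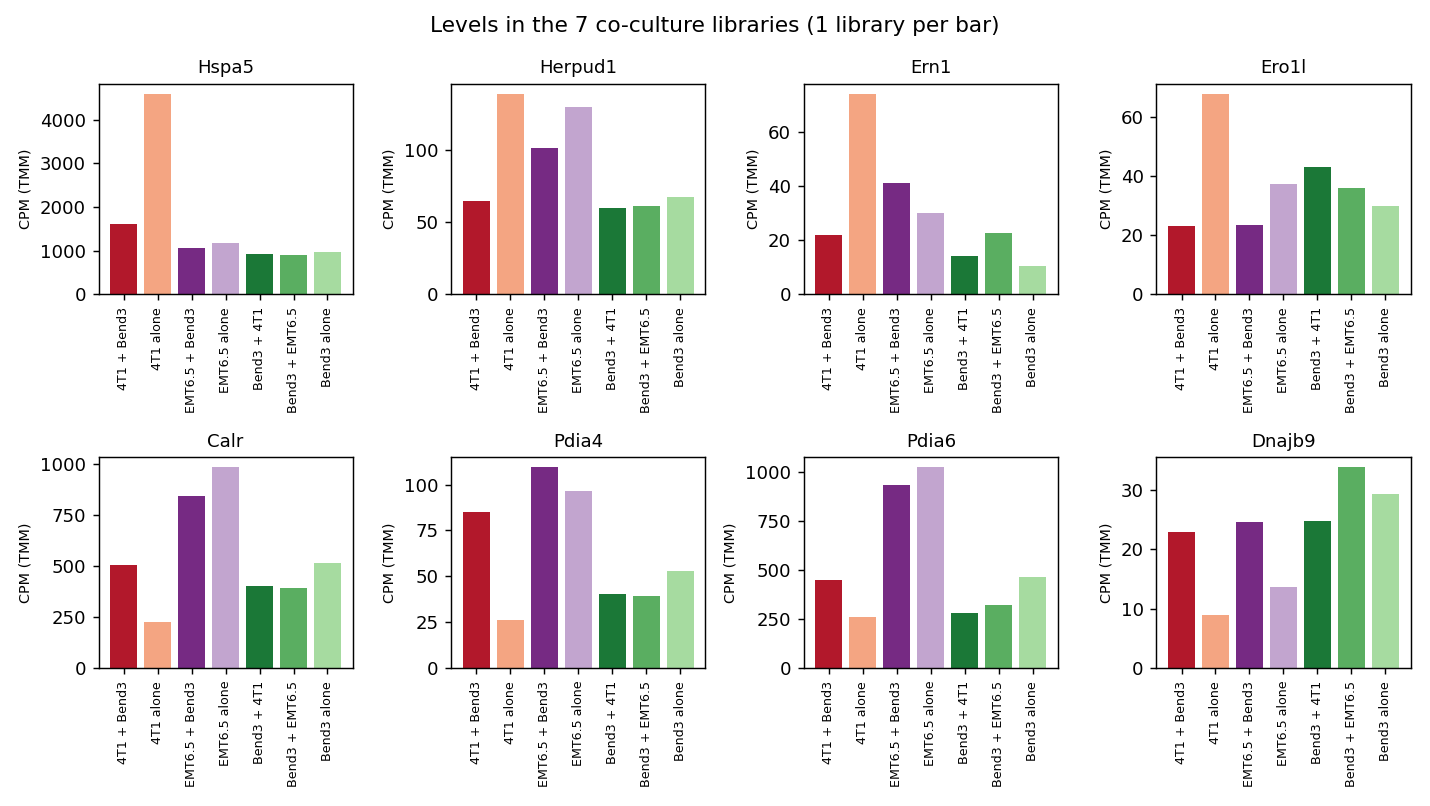
CPM (y axis, scaled by TMM over the 7 libraries) of 8 genes in each co-culture library, 1 library per bar, with each sorted line left of the same line grown alone. Hspa5, Herpud1, Ern1 and Ero1l are highest in 4T1 alone, while Calr, Pdia4 and Pdia6 are lowest of the tumour libraries there.

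The genes with an ERSE or ERSE-II match were set beside those whose window held neither, as a description. In the knockdown, 6 of 10 tested holders rose (60%) and 1 fell (10%), with a median log2 fold change of 0.16, and of 14 without a match 5 rose and 5 fell (35.7% each), with a median of 0.0075, against 30.1% higher and 29.6% lower of all tested genes. Among the holders Hspa5, Dnajc3, Canx, Creld2, Dnajb11 and Herpud1 rose and Calr fell. Hyou1 (0.20), Atf6 (0.38), Manf (0.16), Sec61a1 (0.29) and Derl1 (0.37) had no matched window and are in neither group. All of them were called higher in the knockdown, so the contrast between the groups depends on which genes had a window. In MDA-MB-231, by the mouse windows, 3 of 11 holders were higher (27.3%) and 2 lower (18.2%), with a median of 0.061, and of 14 without a match 5 were higher and 4 lower, with a median of -0.052, against 21.6% and 22.9% of all tested genes. In 4T1 with Bend3, the median ratio was 1.07 over 10 holders, of which 2 were higher and 2 lower (20% each, against 23.7% and 24.4% of all genes), and 1.31 over 14 without a match, of which 4 were higher and 3 lower. In EMT6.5 with Bend3 none of the 10 holders passed 1.5-fold, with a median ratio of 0.901, and of 14 without a match 1 was higher and 3 lower, with a median of 1.0996. In Bend3 the median ratio was 0.908 over holders and 0.850 over those without a match with 4T1, and 0.916 and 0.895 with EMT6.5. Hspa5 and Calr, which both carry an ERSE, had ratios of 0.350 and 2.24 in 4T1 with Bend3.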

How the data were processed

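Raw gene counts were deposited. The submitters' processing notes name HISAT2 2.1.0, HTSeq and Trim Galore 0.5.0, and the build GRCm38. Per the labels, libraries were stranded mRNA from 1 µg of total RNA, read as 50 bp single ends. The human build and the counting settings are not given in the sources used here. In the knockdown table, labels matched 6 of the 16 library columns, and the other 10 were not used. Columns named SCR in the MDA-MB-231 table were read as control. Summary lines that name no gene stayed out of library sizes. They held 60.2% to 66.0% of all entries of the co-culture libraries, with 48.2% to 55.3% of all entries in reads aligned to several places alone, and for the MDA-MB-231 libraries 14.3% to 15.2%.

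Whole tables were fitted per experiment with edgeR 4.0.16 (TMM, filterByExpr, quasi-likelihood test, Benjamini-Hochberg over all tested genes, calls under 0.05; R 4.3.3). SE is the log2 fold change over the square root of F. The fit was tested on simulated counts with 200 changed genes. DESeq2 1.42.0 was an alternative. The biological coefficient of variation was 3.23% in the knockdown and 6.32% in MDA-MB-231. Co-culture ratios are of TMM CPM at a mean of at least 5 CPM, with 95% exact intervals from the binomial split of the counts. No molecular identifiers were counted, so intervals cover counting error only. Replicate numbers were not treated as pairs. Members and lists were chosen with earlier results of these data known. Values per library are given for Hspa5, the 4 genes of sensing and the 8 called members with the largest change at a mean of at least 10 CPM, and of the wider lists the 8 called genes with the largest change at the same limit, plus Atf4, Ddit3 and Ppp1r15a, are named.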

Additional observations from a re-analysis of the deposited data

Results flagged for a closer look

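In co-culture, 10 gene ratios went opposite ways in the pairs compared, each with a counting interval that leaves out 1. The difference was not tested, since each ratio rests on 1 library per condition. The share of all genes that meet this rule is not given, so the 10 cannot be read as a trait of the list. Over all genes, 23.7% were 1.5-fold higher and 24.4% lower in 4T1 with Bend3. Counting intervals are narrow for genes with many counts, so ratios close to 1 also meet the rule. In 4T1 with Bend3 against EMT6.5 with Bend3, the ratio to the same line alone was 1.34 and 0.888 for Hsp90b1, 1.79 and 0.598 for Sdf2l1, 1.18 and 0.670 for Manf, 2.24 and 0.859 for Calr, 1.74 and 0.914 for Pdia6, and 1.26 and 0.630 for Edem1. It was 0.297 and 1.37 for Ern1, 0.585 and 1.40 for Sel1l, and 0.647 and 1.21 for Sec61a1. For Derl2 it was 0.868 in Bend3 with 4T1 and 1.19 in Bend3 with EMT6.5, and these ratios share the Bend3 monoculture.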

How the results depend on the processing

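Of 852 values of single genes under other settings, 784 were classed as unchanged, and of 128 counts 115 stayed within 1.5 times. For the fits, unchanged means the same side of the threshold and, for called genes only, the same direction. For chromosome medians it means a shift smaller than the spread between libraries, with the sign kept for called genes only. The 116 co-culture values under library totals carry no test and were all classed as unchanged. A floor of 1.2-fold left 8 members higher and 3 lower in the knockdown (wider ER genes 20 and 6), and 6 and 5 in MDA-MB-231 (wider ER genes 15 higher). A 2-fold limit in co-culture left 3 higher and 5 lower in 4T1, 0 and 0 in EMT6.5 and 0 lower in Bend3 with either partner. Fewer genes can pass these stricter limits. The shares of all genes are not given for these limits or for the other settings, so these counts do not compare the lists with all genes. Subtracting the chromosome median turned Calr to 0.096 and Creld2 to -0.012. Leaving out 1 library gave 14 to 16 members higher and 6 lower in the knockdown (wider ER genes 35 to 38 and 18 to 22) and 8 to 11 higher and 6 to 10 lower in MDA-MB-231 (wider 23 to 28 and 21 to 30). Libraries with the same replicate number did not deviate together (their deviations correlated at -0.055 to -0.0001 for the knockdown and at -0.023 to 0.038 for the human line). With a replicate block 15 members were higher and 6 lower in the knockdown (wider ER genes 36 and 20), and 12 and 8 in MDA-MB-231 (wider 26 and 26), with Derl2 no longer called (edgeR adjusted p = 0.0543) and CALR called (0.0428). The co-culture set has no replicates, and at 4.27 to 7.67 M counts it left Derl3 out of the comparison and, of the 29 genes compared, gave Eif2ak3 and Dnajb9 31 and 41 counts in 4T1 alone.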
